A study of Mus musculus with 30 samples.

Results

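The lean fracture callus was compared between d10 and d7 after fracture, over all genes of the count table. The comparison used 6 of the 30 libraries of the series: the 3 lean libraries of d10 (X54, X56 and X57, in the order given throughout) and the 3 lean libraries of d7 (X19, X20 and X23). Of 43629 genes in the table, 16471 had enough counts to be tested. Both groups were male C57BL/6J mice, 20 weeks old, that had been fed the low-fat control diet and received an open osteotomy through the middle of the right tibia, held with an intramedullary nail. The soft tissue was removed, and each library was made from the polyadenylated RNA of 1 callus of 1 mouse, so the replicates are separate animals. The DIO mice used for comparison below had been made obese with a high-fat diet and had the same strain, sex, age and fracture. A callus is a mixed tissue of cartilage, new bone, vessels and blood-derived cells.

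In endochondral healing, chondrocytes fill the fracture gap with a soft callus of collagen II and proteoglycan, enlarge, and mineralise their matrix. Osteoclasts, the multinucleated cells of the macrophage lineage that form under RANKL and macrophage colony-stimulating factor, then resorb the mineralised matrix while osteoblasts lay down woven bone. Neutrophils, monocytes and the interferon-induced genes of these cells belong to the inflammatory reaction that precedes the soft callus.

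X54 stood apart from X56 and X57, and the results below are therefore given with and without it. Total counts ran from 15777919 to 20489678 per library, with the highest in X54, so depth was not lower there. Scaling was by TMM (trimmed mean of M-values), whose factor was 0.775 in X54, 0.932 in X56, 0.929 in X57 and 1.00 to 1.05 on d7. The 10 genes with the most reads took 18.5% of the reads of X54, against 12.6% and 15.8% in X56 and X57 and 10.4 to 12.5% on d7. Levels are given as CPM, the count of a gene divided by this scaled library size. Transcripts that mark a callus were present in all 6 libraries, with collagen I (Col1a1) at 27367, 32044 and 32732 CPM on d7 and 53263, 33220.3 and 44077 CPM on d10 and collagen II (Col2a1) at 2190.3 CPM or more. Each library was set against the mean of the other 2 of its day on the log2 CPM scale (prior count 2). X54 was at least 2-fold away from X56 and X57 in 2987 genes, which is 18.1% of those tested, with 938 higher and 2049 lower. The same measure gave 1823 genes for X56 and 1893 for X57, and 759 to 1184 for the d7 libraries. Pairwise, X56 and X57 were at least 2-fold apart in 1586 genes, while X54 was apart from X56 in 3040 and from X57 in 3499. X56 was closer to a d7 library, X19, with 1361 genes apart, than it was to X57. The correlation of log2 CPM with the other 2 libraries of the day averaged 0.939 for X54 and 0.954 for both X56 and X57, over genes that are not independent of each other. The first principal component of the 6 libraries held 56.8% of the variance and placed X54 at -111, with X56 at 3.25, X57 at -11.3 and the d7 libraries between 31.8 and 47.4.

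**Figure D1:**
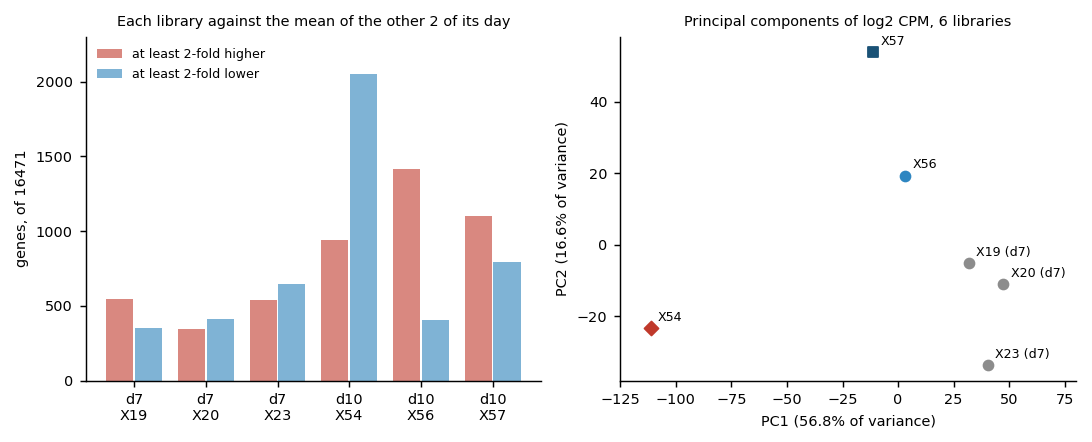
Left, number of tested genes (of 16471) at least 2-fold higher or lower in each library than in the mean of the other 2 libraries of its day, on the log2 CPM scale. Right, the 6 libraries on the first and second principal components of log2 CPM (56.8% and 16.6% of the variance). X54 has 2049 genes that are at least 2-fold lower, the tallest bar of the 6 libraries, and lies at -111 on the first component, away from the other 5.

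Among the gene lists, most cartilage collagen and cartilage matrix genes were at least 2-fold higher in X54, and most erythroid, B-lineage, neutrophil and adult muscle genes at least 2-fold lower. Among 8 cartilage collagens the median of X54 minus the mean of X56 and X57 was 1.89 on the log2 scale, and 7 of the 8 were at least 2-fold higher. Noncollagenous cartilage matrix genes gave 1.87, with 16 of 21 at least 2-fold higher. Erythroid genes gave -4.24 (14 of 14 at least 2-fold lower), B-lineage genes -4.104 (18 of 18), adult skeletal muscle genes -3.59 (20 of 20) and neutrophil genes -3.21 (27 of 30). The osteoclast list had a median of -0.22, with 1 of 26 genes at least 2-fold lower and 1 at least 2-fold higher. The lowest gene of X54 was Ctse, the aspartic protease cathepsin E, at 51.1, 111 and 58.1 CPM on d7 and 0, 49.3 and 9.35 CPM in X54, X56 and X57. Ppbp, the platelet chemokine, was at 80.1, 77.7 and 141 CPM on d7 and 0.441, 50.2 and 28.8 CPM on d10. The other lowest genes were Trim10, Hemgn, Gfi1b and Cldn13, which are known from red cell precursors, the immunoglobulin gene Ighg1 and Apol11b. X54 held 0 of 20489678 reads for Ctse, Trim10, Hemgn and Ighg1, which allows up to 3 reads each by counting error. The highest gene of X54 was the noncoding RNA Gm26917 (chr17:39843013-39846341, GRCm38), at 60.2, 31.6 and 53.1 CPM on d7 and 488, 47.8 and 20.3 CPM on d10. Lars2, the mitochondrial leucyl-tRNA synthetase, followed the same order, with 1337, 234 and 109.6 CPM on d10. Gm26917, Lars2 and 4 further noncoding genes (Gm15564, Gm23935, Gm24187 and Gm42418, the last chosen after its values were seen) together took 0.804% of the reads in X54, 0.304% in X56, 0.135% in X57 and 0.138 to 0.248% on d7. Whether differing amounts of cartilage, marrow and muscle in the dissected tissue, or the RNA of this library, gave these values was not tested.

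Over all genes, 450 passed an adjusted p of 0.05 between d7 and d10, which is 2.73% of those tested. Of these 179 were higher on d10 (1.09%) and 271 lower (1.65%), and 427 of the 450 are annotated as protein coding. The median log2 fold change over all tested genes was -0.0086. In every one of the 450 genes the 3 libraries of d10 lay on one side of the 3 of d7, a separation seen in 28.2% of all tested genes. X54 was the d10 library farthest from the d7 mean in 310 of the 450 genes, against 53 for X56 and 87 for X57. Among the genes that fell, X54 lay at a median of -1.58 from the d7 mean on the log2 scale, while X56 and X57 lay at -0.96 and -1.13. Among those that rose the medians were 0.96, 0.81 and 0.78. Without X54, 100 genes passed (0.594% of 16836), 49 higher (0.291%) and 51 lower (0.303%). Of the 450 genes, 96 were among these 100, 48 in each direction. Leaving out a d7 library left fewer calls, 45 without X19, 24 without X20 and 35 without X23, whereas 642 passed without X56 and 1141 without X57. A fit of the 6 libraries alone gave 0 by edgeR, with 3219 genes at an unadjusted p under 0.05, and DESeq2 on the 12 lean libraries called 1773. A gene whose RNA falls in bulk tissue may come from fewer cells of a type or from less RNA per cell, and these cannot be told apart here.

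**Figure D2:**
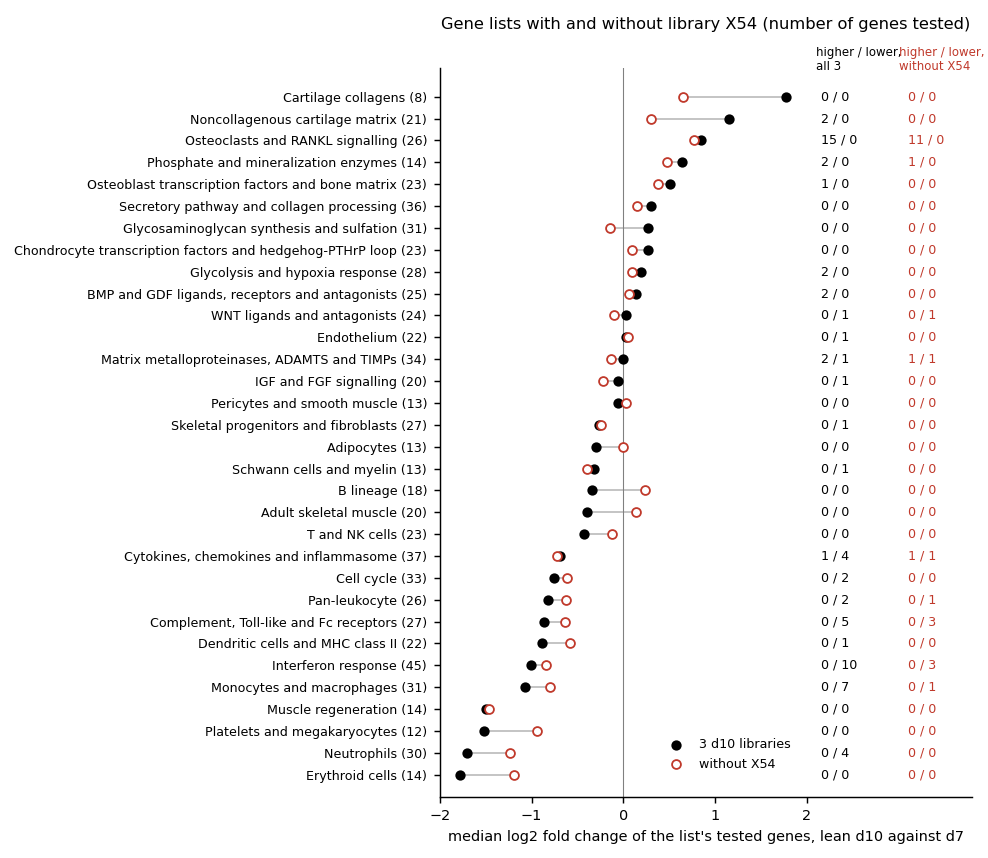
Median log2 fold change of d10 against d7 for the tested genes of 32 gene lists, with all 3 d10 libraries (black) and without X54 (open red circles). The numbers on the right are genes passing an adjusted p of 0.05, higher and lower. The osteoclast list has 15 genes higher with X54 and 11 without it, while the cartilage collagen median moves from 1.77 to 0.65.

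Osteoclast genes rose. Of 26 genes of the osteoclast and RANKL list, 15 were higher on d10 and 0 lower, beside 1.09% and 1.65% of all tested genes. The median log2 fold change was 0.85 beside -0.0086 over all genes, and 25 of 26 had a fitted increase. Like the other lists, this list was chosen with earlier results of these data known, so its count is a description. Without X54, 11 of the 26 were called higher, beside 0.291% of all tested genes, and the median was 0.76. The list summed to 6198, 6479.9 and 4990.5 CPM on d7 and to 12128, 13768 and 16148 CPM on d10, after 2684, 2928 and 2570.2 CPM on d3 and 3719, 3793 and 3868 CPM on d5. The lowest d10 library of this list was X54, and it lay above every earlier library.

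Effector genes of bone resorption rose. Acp5 (chr9:22126727-22135711, ENSMUSG00000001348, minus strand, protein coding), the tartrate-resistant acid phosphatase, was at 1597, 1709 and 1085 CPM on d7 and 5063, 5558 and 6234 CPM on d10. It rose by 1.94 ± 0.198 (log2, SE, 3 mice per day, adjusted p = 0.00253), and by 2.02 without X54 (adjusted p = 0.00377). The 3 d10 libraries were close together, and X54 was the lowest of them. Ctsk, the collagen-degrading cathepsin of the resorption lacuna, was at 1622, 1609.9 and 1361 CPM on d7 and 2893, 3755 and 5058 CPM on d10 (1.35 ± 0.21, adjusted p = 0.0166, and 1.54 without X54, adjusted p = 0.00735). The libraries of the days did not overlap for Ctsk, and the spread within d10 was wider than for Acp5. Mmp9, the gelatinase of osteoclasts, was at 1609, 1578 and 1495 CPM on d7 and 4409, 4027 and 4139.8 CPM on d10, with the libraries of each day close together (1.43 ± 0.22, adjusted p = 0.0166, and 1.399 without X54, adjusted p = 0.0294). Of the acid-secretion machinery, the proton pump subunit Atp6v0d2 was at 121, 101 and 106 CPM on d7 and 165, 237 and 313 CPM on d10 (1.13 ± 0.21, adjusted p = 0.0275). The pump subunit Atp6v1c1, the chloride-proton exchanger Clcn7, the sorting nexin Snx10 and the bicarbonate exchanger Slc4a2 rose by 0.65, 0.55, 0.99 and 0.71 (adjusted p = 0.0421, 0.0421, 0.0310 and 0.0312), and without X54 Clcn7 and Slc4a2 gave 0.63 and 0.63 and no longer passed (adjusted p = 0.0544 and 0.0792). Slc9b2, a sodium-proton antiporter of osteoclasts that was chosen after its values were seen, was at 89.6, 86.3 and 70.1 CPM on d7 and 199, 271 and 314 CPM on d10 (1.67 ± 0.17, adjusted p = 0.00253).

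The genes of cell fusion rose in all 3 calli by nearly the same amount. Ocstamp (chr2:165393760-165400405, ENSMUSG00000027670, minus strand, protein coding), which encodes a membrane protein needed for osteoclast precursors to fuse, was at 37.2, 33.1 and 27.3 CPM on d7 and 102, 87.4 and 86.6 CPM on d10 (1.498 ± 0.14, adjusted p = 0.00253, and 1.43 without X54, adjusted p = 0.00482). Its partner in fusion, Dcstamp, was at 38.9, 32.2 and 27.6 CPM on d7 and 85.7, 97.6 and 104 CPM on d10 (1.54 ± 0.19, adjusted p = 0.00738). The days were separated by more than the range within either of them for both genes. Mst1r, a receptor tyrosine kinase of macrophages, was at 53.9, 56.2 and 45.2 CPM on d7 and 144, 107 and 137 CPM on d10 (1.32 ± 0.15, adjusted p = 0.00455).

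Several receptors rose, while the ligands RANKL and Csf1 did not pass. The RANKL receptor Tnfrsf11a was at 23.4, 23.5 and 22.98 CPM on d7 and 38.1, 41.1 and 43.7 CPM on d10 (0.81 ± 0.14, adjusted p = 0.0214). The costimulatory receptor Oscar was at 36.4, 37.6 and 25.1 CPM on d7 and 51.03, 67.2 and 94.3 CPM on d10 (1.100 ± 0.24, adjusted p = 0.0395). Siglec15, a sialic acid receptor of osteoclasts, rose by 1.89 ± 0.27 (adjusted p = 0.0121) at a low level of 4.79, 6.12 and 6.73 CPM on d10, and the calcitonin receptor Calcr by 2.64 ± 0.499 (adjusted p = 0.0286) from 0.593, 0.587 and 0.508 to 2.96, 1.97 and 5.66 CPM. The call of Calcr was lost without X54 (adjusted p = 0.0511) at nearly the same fold change, 2.76. RANKL itself, Tnfsf11, was at 13.1, 14.3 and 15.2 CPM on d7 and 33.96, 17.7 and 29.6 CPM on d10, which did not overlap but did not pass (0.93 ± 0.29, adjusted p = 0.0836). Its decoy receptor osteoprotegerin, Tnfrsf11b, overlapped between the days (adjusted p = 0.692), with X56 far below X54 and X57. The growth factor Csf1 and its receptor Csf1r gave 0.405 and 0.51 (adjusted p = 0.155 and 0.126). The osteoclast transcription factor Nfatc1 was at 133, 116 and 140.5 CPM on d7 and 329, 179 and 210.4 CPM on d10 (adjusted p = 0.0588), and the integrin Itgb3 at 206, 196 and 204 CPM and 390.4, 432 and 442 CPM (adjusted p = 0.0551). Carbonic anhydrase Car2, which red cell precursors also express, was the member with a fitted decrease (-1.32, adjusted p = 0.339), and X54 had its lowest value, with 27.03, 165 and 68.7 CPM on d10.

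**Figure D3:**
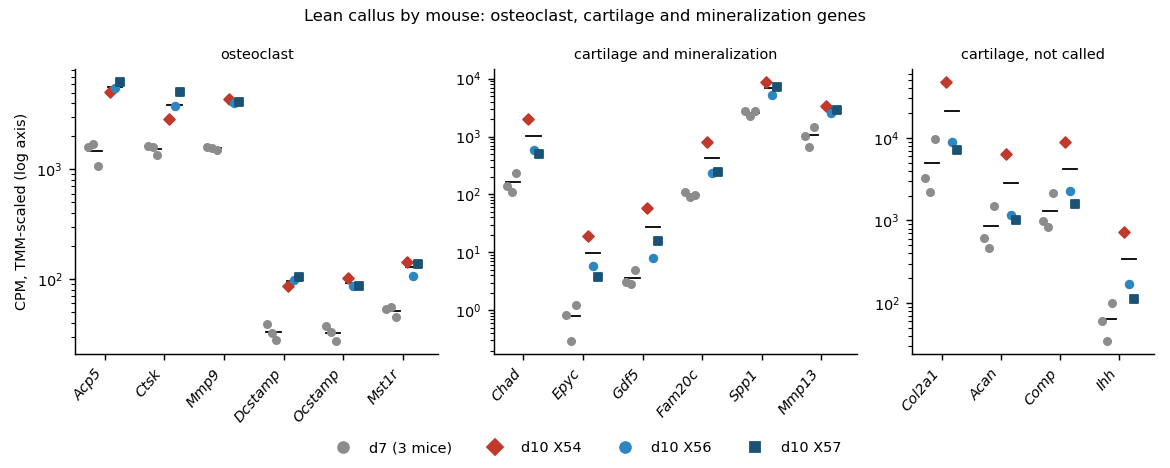
TMM-scaled CPM (log axis) of osteoclast, cartilage and mineralization genes in each lean library, with d7 in grey and the 3 d10 libraries marked by colour and shape; the short line is the mean of the 3 libraries of a day. The d10 values of Acp5 (5063 to 6234 CPM) lie together above d7, whereas for Col2a1 X54 is at 47119.7 CPM and X56 and X57 lie within the d7 range.

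Cartilage genes had large fitted increases, and X54 was far above the other libraries. By the edgeR test, 0 of 8 cartilage collagens passed, and 0 by DESeq2. At an unadjusted p under 0.05 there were 3, beside 4275 of all 16471 tested genes. Their median log2 fold change was nonetheless 1.77 with X54, and 0.65 without it. The collagens summed to 8068, 6968 and 19446 CPM on d7 and 80737, 19983 and 18921 CPM on d10, so that X56 and X57 lay beside the highest d7 library. Col2a1, the main collagen of cartilage, was at 3247, 2190.3 and 9617 CPM on d7 and 47119.7, 8976 and 7095 CPM on d10 (2.07 ± 0.83, adjusted p = 0.145, and 0.69 without X54, adjusted p = 0.633). X54 was the outlying value, and X56 and X57 fell within the d7 range. The proteoglycan core protein Acan followed the same order at 613, 461 and 1519 CPM on d7 and 6443, 1161 and 1021 CPM on d10 (adjusted p = 0.159). Col10a1, the collagen of hypertrophic chondrocytes, did not overlap between the days, at 912, 664 and 2421 CPM and 12115, 3574 and 4602 CPM, and did not pass (2.34 ± 1.14, adjusted p = 0.215). Indian hedgehog, Ihh, a signal of prehypertrophic chondrocytes, was at 60.3, 34.8 and 99.8 CPM on d7 and 729.8, 172 and 111 CPM on d10 (adjusted p = 0.0865). Sox9, the transcription factor of chondrocytes, gave 0.68 with X54 and -0.26 without it (adjusted p = 0.470 and 0.816).

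Of 21 noncollagenous cartilage genes, 2 were called higher, chondroadherin (Chad) and epiphycan (Epyc), and 0 lower, beside 1.09% and 1.65% of all tested genes. The median was 1.15. Without X54, 0 were called higher, beside 0.291% of all tested genes, and the median was 0.301. Of the 21 genes, 11 had an unadjusted p under 0.05 and DESeq2 called 4 higher, beside 4275 and 1773 over all genes. Chad, a leucine-rich matrix protein, was at 140.3, 109 and 238 CPM on d7 and 1983, 590.3 and 496 CPM on d10 (2.65 ± 0.604, adjusted p = 0.0437, and 1.75 without X54, adjusted p = 0.112). Epyc, a small proteoglycan of growth cartilage, was at 0.831, 0.294 and 1.24 CPM on d7 and 19.3, 5.78 and 3.75 CPM on d10 (3.59 ± 0.79, adjusted p = 0.0405, and 2.59 without X54, adjusted p = 0.127). X56 and X57 exceeded every d7 library for both genes, by less than X54 did. Gdf5, a growth factor of joint and cartilage formation, was at 3.03, 2.82 and 5.02 CPM on d7 and 58.97, 7.83 and 15.4 CPM on d10 (2.92 ± 0.64, adjusted p = 0.0405, and 1.69 without X54, adjusted p = 0.0973). Exons of Epyc and Gdf5 lie opposite to those of Gm10754 and Gm15557 over 40.6% and 40.3% of their length, and the strand setting of the counting is not given in the sources used here. The 23 chondrocyte transcription factors and hedgehog genes, 31 genes of glycosaminoglycan synthesis and 36 of the secretory pathway had 0 calls by edgeR, with medians of 0.26, 0.27 and 0.298. At an unadjusted p under 0.05 these lists had 7, 8 and 10 genes, beside 4275 of the 16471 tested genes, and DESeq2 called 3, 2 and 3.

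Bone matrix showed few calls by edgeR. Of 23 osteoblast and bone matrix genes, 7 had an unadjusted p under 0.05, beside 4275 of all 16471 tested genes. DESeq2 called 5 higher and 0 lower, beside 1773 genes in either direction over all genes. The days did not overlap in 12, beside 28.2% of all tested genes, and the median was 0.51 (0.37 without X54). By edgeR 1 was called higher and 0 lower, beside 1.09% and 1.65% of all tested genes. That gene was Spp1, osteopontin, a phosphoprotein of bone matrix that osteoclasts also make, at 2736, 2301 and 2756 CPM on d7 and 8669, 5192 and 7154 CPM on d10 (1.43 ± 0.25, adjusted p = 0.0225, and 1.26 without X54, adjusted p = 0.0526). Col1a1, the main collagen of bone, gave 0.503 (adjusted p = 0.343). The osteoblast transcription factors Runx2 and Sp7 gave -0.025 and 0.21 (adjusted p = 0.956 and 0.613), and Dmp1, a marker of osteocytes, gave 1.402 (adjusted p = 0.0886). Of 14 phosphate and mineralization genes, 9 had an unadjusted p under 0.05 and DESeq2 called 6 higher, beside 4275 and 1773 over all genes. The days did not overlap in 11, beside 28.2% of all tested genes, and the median was 0.64 (0.47 without X54). By edgeR 2 were called higher, Slc4a2 and Fam20c, and 0 lower, beside 1.09% and 1.65% of all tested genes. Fam20c, the Golgi kinase that phosphorylates secreted matrix proteins, was at 111, 91.3 and 96.5 CPM on d7 and 803, 238 and 239.8 CPM on d10 (2.101 ± 0.404, adjusted p = 0.0296). X54 was the highest by far, and without it the change was smaller and still called, 1.28 (adjusted p = 0.0150). Among 34 matrix proteases and inhibitors, 2 were called higher (Mmp9 and Mmp13) and 1 lower (Adam8), beside 1.09% and 1.65% of all tested genes. The median was -0.0059. Mmp13, the collagenase of hypertrophic cartilage, was at 1021, 661 and 1458 CPM on d7 and 3407, 2521 and 2917 CPM on d10 (1.49 ± 0.35, adjusted p = 0.0462, and 1.39 without X54, adjusted p = 0.111). Adam8, a membrane protease of leukocytes and osteoclasts, was at 127, 113 and 94.8 CPM on d7 and 66.02, 47.6 and 50.5 CPM on d10, the opposite direction to Mmp9 (-1.03 ± 0.17, adjusted p = 0.0201).

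Lists of growth factors and fibroblast genes had 1 or 2 calls each, beside 2.73% of all tested genes. Sfrp2, a secreted WNT modulator, was the single call among 24 WNT genes, at 75.2, 92.5 and 112 CPM on d7 and 16.8, 26.2 and 30.4 CPM on d10 (-1.93 ± 0.296, adjusted p = 0.0166, and -1.71 without X54, adjusted p = 0.0347). Igf2, the fetal insulin-like growth factor, was the single call among 20 IGF and FGF genes, at 261, 276 and 309 CPM on d7 and 61.99, 122 and 86.7 CPM on d10 (-1.65 ± 0.38, adjusted p = 0.0453). All d10 values of both genes lay below d7. Exons of Gm49394 cover 62.8% of those of Igf2 on the same strand, so its count is uncertain. Col14a1, a fibril-associated collagen of fibroblasts, was the single call among 27 progenitor and fibroblast genes (-1.63 ± 0.35, adjusted p = 0.0376). Of 25 BMP and GDF genes, 2 were called higher, Gdf5 and Bmp7, the latter at 4.69, 5.99 and 4.69 CPM on d7 and 12.6, 11.5 and 15.2 CPM on d10 (1.35 ± 0.32, adjusted p = 0.0462). Without X54, Igf2, Col14a1 and Bmp7 gave -1.43, -1.36 and 1.39 and did not pass (adjusted p = 0.127, 0.0969 and 0.0960).

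Several interferon-induced genes fell. Of 45 tested genes of the interferon list, 10 were lower on d10 and 0 higher, beside 1.65% and 1.09% of all tested genes. DESeq2 called 28 lower, beside 1773 genes in either direction over all genes. The median was -1.005, and 43 of 45 had a fitted decrease. Without X54 the median was -0.84, all 45 had a fitted decrease and 3 were called lower, namely Oas2, Ddx58 and Slfn4. The list summed to 1183, 1518 and 1129 CPM on d7 and 563, 809 and 603 CPM on d10, with no overlap. Summed neutrophil and macrophage genes were also lower in each of these d10 libraries than on d7, at 515, 7249 and 3392 CPM and 2295, 3669 and 3053 CPM against 9574, 14166 and 11508 CPM and 5446, 5984 and 4349.98 CPM, and their part in the interferon values was not tested. Oas2 (chr5:120730333-120749853, ENSMUSG00000032690, minus strand, protein coding), an oligoadenylate synthetase that senses double-stranded RNA, was at 39.9, 52.3 and 30.995 CPM on d7 and 7.88, 12.5 and 8.401 CPM on d10 (-2.098 ± 0.26, adjusted p = 0.00738, and -1.96 without X54, adjusted p = 0.0150). X57 was nearly as low as X54, and X56 was higher. Ddx58, the cytosolic RNA sensor RIG-I, was at 38.1, 44.2 and 45.8 CPM on d7 and 16.5, 23.5 and 23.8 CPM on d10 (-1.005 ± 0.16, adjusted p = 0.0185). Slfn4, a Schlafen gene of myeloid cells, was at 96.4, 136 and 132 CPM on d7 and 5.17, 26.1 and 19.4 CPM on d10 (-2.85 ± 0.48, adjusted p = 0.0207, and -2.41 without X54, adjusted p = 0.0133). Slfn4 was lowest in X54, below X56 and X57, which were themselves far under d7. Slfn8, its relative, was at 16.4, 16.03 and 14.96 CPM on d7 and 5.73, 8.51 and 8.46 CPM on d10 (adjusted p = 0.0286, and 0.0665 without X54). The other called members were Oas3 (-2.09), the antiviral GTPase Mx1 (-1.26), the nucleotide kinase Cmpk2 (-1.65), the nucleic acid sensor Zbp1 (-1.42), the RIG-I relative Dhx58 (-0.84) and Oasl2 (-1.26), with adjusted p from 0.0333 to 0.0495. Ifit1 and Isg15 are among the most widely used interferon-induced genes and did not pass, at -1.37 and -1.03 (adjusted p = 0.127 and 0.113). Isg15 overlapped between the days, with 20.6, 50.2 and 17.9 CPM and 12.5, 20.2 and 10.7 CPM.

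**Figure D4:**
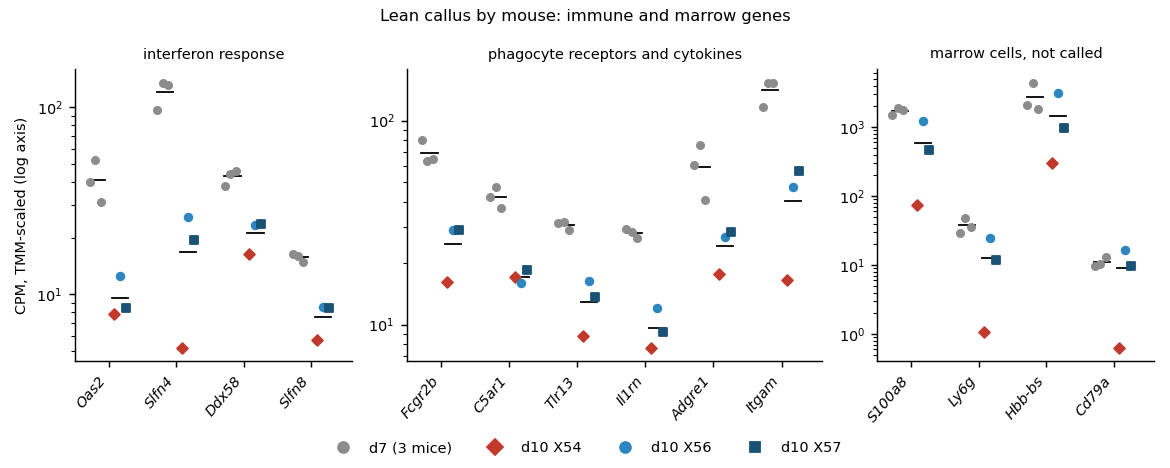
TMM-scaled CPM (log axis) of interferon-induced genes, phagocyte receptors and cytokine genes, and marrow-cell genes that were not called, in each lean library; the short line is the mean of the 3 libraries of a day. Oas2 and C5ar1 are low in all 3 d10 libraries, while S100a8 is at 75.3 CPM in X54 and 1209 CPM in X56.

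As a description of the list, the promoters of the interferon genes were searched for the core of the interferon-stimulated response element. The core is GAAA followed by any 2 bases and GAAA again. Both strands were searched, from 250 bases before to 50 bases after the start site (RefSeq, GRCm38.p6). Of 35 tested interferon genes with a promoter in the table, 22 (62.9%) held a match, against 458 of 11812 tested genes (3.88%). Within the list 3 of 6 called genes and 19 of 29 others held a match. The sites of the 3 called genes with a match, and of 2 well-known members that were not called, are shown along the strand of the gene, with the match in capitals. Matches that read TTTC lie on the strand opposite to the gene. Isg15 holds further matches that overlap the printed site, and Ifit1 holds a second match farther from its start.
Oas3: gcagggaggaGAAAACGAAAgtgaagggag
Ddx58: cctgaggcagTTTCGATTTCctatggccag
Slfn8: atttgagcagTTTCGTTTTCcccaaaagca
Isg15: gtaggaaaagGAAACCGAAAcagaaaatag
Ifit1: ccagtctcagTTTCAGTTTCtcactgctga
These stretches lie at chr5:120777715-120777744 (Oas3), chr4:40239804-40239833 (Ddx58), chr11:83020839-83020868 (Slfn8), chr4:156200871-156200900 (Isg15), all 4 genes on the minus strand, and chr19:34640794-34640823 (Ifit1, plus strand). The site of Ddx58 begins 2 bases after the annotated start and the others lie 48 to 85 bases before it.

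Several receptors of phagocytes fell. Of 27 complement, Toll-like and Fc receptor genes, 5 were called lower and 0 higher, beside 1.65% and 1.09% of all tested genes. The median was -0.86, and 3 were called without X54 (C5ar1, Fcgr2b and Tlr13). C5ar1, the receptor for the complement fragment C5a, was at 42.3, 47.2 and 37.4 CPM on d7 and 17.1, 15.9 and 18.5 CPM on d10, nearly the same in the 3 d10 calli (-1.300 ± 0.17, adjusted p = 0.00738, and -1.28 without X54, adjusted p = 0.0201). Fcgr2b, the inhibitory immunoglobulin receptor, was at 79.9, 63.4 and 65.04 CPM on d7 and 16.2, 29.1 and 29.2 CPM on d10 (-1.48 ± 0.24, adjusted p = 0.0201). Tlr13, which senses bacterial ribosomal RNA, was at 31.5, 31.8 and 28.96 CPM on d7 and 8.82, 16.3 and 13.6 CPM on d10 (-1.25 ± 0.203, adjusted p = 0.0201). Fcgr2b and Tlr13 were lowest in X54, with X56 and X57 between X54 and d7. Tlr2 and Tlr7 fell, with log2 fold changes of -0.74 and -1.21 (adjusted p = 0.0296 and 0.0416), and neither passed without X54 (adjusted p = 0.0770 and 0.112).

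Several macrophage genes fell. Of 31 genes, 7 were called lower and 0 higher, beside 1.65% and 1.09% of all tested genes. The median was -1.07 (-0.797 and 1 called without X54, Ccr2). Adgre1, the macrophage antigen F4/80, was at 60.5, 76.1 and 40.99 CPM on d7 and 17.7, 26.7 and 28.5 CPM on d10 (-1.28 ± 0.27, adjusted p = 0.0365, and -1.09 without X54, adjusted p = 0.0992). Ccr2, the chemokine receptor of inflammatory monocytes, was at 61.05, 55.4 and 78.5 CPM on d7 and 4.79, 22.8 and 21.6 CPM on d10 (-1.99 ± 0.45, adjusted p = 0.0426). The immunoglobulin receptors Fcgr1 and Fcgr3, the fractalkine receptor Cx3cr1, Siglec1, and Acod1, which makes itaconate, were the other calls, from -1.02 to -3.38. In contrast Cd68, a lysosomal protein that macrophages share with osteoclasts, was at 273, 289 and 204 CPM on d7 and 319, 372 and 419 CPM on d10, each d10 value above d7 (0.54 ± 0.17, adjusted p = 0.0868). The complement gene C1qa gave -0.35 (adjusted p = 0.371) with overlapping libraries. Among 26 genes shared by all leukocytes, every member had a fitted decrease, with a median of -0.82 (-0.62 without X54). DESeq2 called 16 lower, beside 1773 genes in either direction over all genes. By edgeR 2 were called lower, beside 1.65% of all tested genes. These were the kinase Fgr (-1.72 ± 0.33, adjusted p = 0.0296) and the phosphatase Inpp5d (-0.68 ± 0.13, adjusted p = 0.0286, and -0.60 without X54, adjusted p = 0.0792). Ptprc, the common leukocyte antigen CD45, was at 117, 138 and 161 CPM on d7 and 18.4, 58.05 and 64.3 CPM on d10 (adjusted p = 0.0540).

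Of 37 cytokine, chemokine and inflammasome genes, 4 were called lower and 1 higher, beside 1.65% and 1.09% of all tested genes. The median was -0.69. Il1rn, the antagonist of the interleukin-1 receptor, was at 29.4, 28.5 and 26.6 CPM on d7 and 7.69, 12.1 and 9.24 CPM on d10 (-1.54 ± 0.21, adjusted p = 0.00738, and -1.39 without X54, adjusted p = 0.0190). The inflammasome sensor Nlrp3 and the neutrophil chemokine Cxcl5 fell, with log2 fold changes of -1.996 and -2.74 (adjusted p = 0.0365 and 0.0216), and neither passed without X54 (adjusted p = 0.0665 and 0.0544). The cytokines Il1b and Tnf had fitted decreases of the same order that did not pass (-1.98 and -1.71, adjusted p = 0.0629 and 0.0540). The one that rose was Ccl9, a chemokine that osteoclasts also secrete, at 170.1, 131 and 129.8 CPM on d7 and 262, 249.7 and 239 CPM on d10 (0.801 ± 0.14, adjusted p = 0.0212, and 0.78 without X54, adjusted p = 0.0427).

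Neutrophil genes gave large fitted decreases with few calls. All 30 neutrophil genes had a fitted decrease, with a median of -1.71. Of these, 27 did not overlap between the days, beside 28.2% of all tested genes. Only 4 were called lower, beside 1.65% of all tested genes, and 0 without X54 (median -1.24). The summed level was 9574, 14166 and 11508 CPM on d7 and 515, 7249 and 3392 CPM on d10; the days did not overlap and X54 was the lowest. S100a8, a calcium-binding protein of neutrophil cytosol, was at 1497, 1908 and 1773 CPM on d7 and 75.3, 1209 and 473 CPM on d10 (adjusted p = 0.214). Ly6g, which defines mouse neutrophils, was at 29.5, 48.2 and 35.9 CPM on d7 and 1.07, 24.6 and 12.04 CPM on d10 (adjusted p = 0.223). The 4 calls were Clec4d, Clec4e, Itgam and Mrgpra2b, of which the first 3 are also made by monocytes and macrophages. Itgam and Mrgpra2b share 66.2% and 80.5% of their 53-base windows with another gene, so their counts are uncertain. Among 22 genes of antigen-presenting cells, 15 had an unadjusted p under 0.05 and DESeq2 called 4 lower, beside 4275 and 1773 over all genes. By edgeR 1 was called lower and 0 higher, beside 1.65% and 1.09% of all tested genes. This was Ciita, the master regulator of MHC class II. Ciita was at 9.14, 7.22 and 11.5 CPM on d7 and 1.39, 3.54 and 3.098 CPM on d10 (-1.79 ± 0.35, adjusted p = 0.0302, and -1.47 without X54, adjusted p = 0.0561).

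Erythroid genes (14 tested, median -1.77), platelet genes (12, -1.52), T and NK cell genes (23, -0.43), B-lineage genes (18, -0.34), adult skeletal muscle genes (20, -0.399) and adipocyte genes (13, -0.302) had 0 calls in either direction by edgeR. At an unadjusted p under 0.05 these lists had 0, 6, 4, 0, 0 and 2 genes, beside 4275 of all 16471 tested genes. DESeq2 called 0, 1, 1, 0, 0 and 0 of them, beside 1773 over all genes. Without X54 the medians were -1.19, -0.94, -0.12, 0.23, 0.14 and -0.0041, so the B-lineage and muscle medians changed sign. B-lineage genes summed to 492, 628 and 583 CPM on d7 and 102, 954 and 814 CPM on d10. X54 was the lowest of the 6 and both other d10 calli were above d7. Adult muscle genes summed to 30124, 19763 and 10025 CPM on d7 and 1809, 24882 and 17494 CPM on d10, and X56 and X57 lay within the d7 range. Genes of endothelium (22 tested, median 0.031) and of pericytes and smooth muscle (13, -0.062) had 1 call between them, beside 2.73% of all tested genes. It was the endothelial transcription factor Sox17 (-0.94 ± 0.22, adjusted p = 0.0483, and -0.84 without X54, adjusted p = 0.136). All 33 cell cycle genes had a fitted decrease, with a median of -0.75 (-0.61 without X54). Of these, 29 had an unadjusted p under 0.05 and DESeq2 called 18, beside the same 4275 and 1773 over all genes. By edgeR 2 were called lower, beside 1.65% of all tested genes. The 2 were Cdk1, the kinase that starts mitosis, and the kinetochore motor Cenpe. Cdk1 was at 54.1, 71.03 and 63.3 CPM on d7 and 26.1, 42.7 and 27.9 CPM on d10 (-0.96 ± 0.195, adjusted p = 0.0343, and -0.82 without X54, adjusted p = 0.0940). Cenpe gave -0.92 ± 0.22 (adjusted p = 0.0467, and -0.82 without X54, adjusted p = 0.131).

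**Figure D5:**
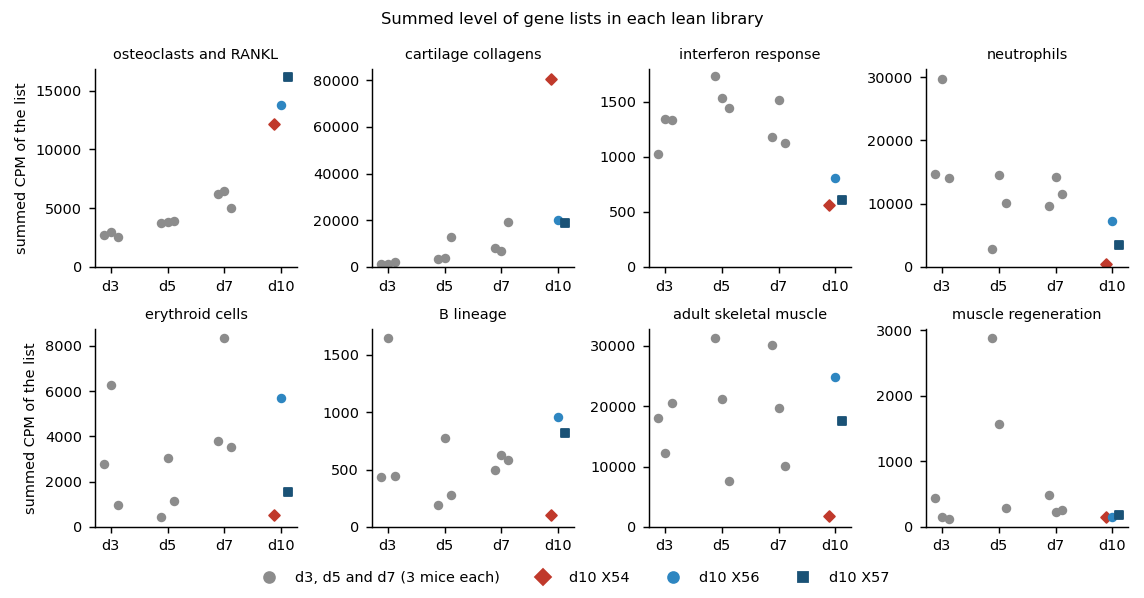
Summed TMM-scaled CPM of 8 gene lists in each of the 12 lean libraries of d3, d5, d7 and d10, on linear axes that start at 0. The osteoclast sum of every d10 callus (12128 to 16148 CPM) exceeds every earlier library, while cartilage collagens are highest and the B-lineage and adult muscle sums lowest in X54.

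Beyond the lists, genes with the largest changes were named by size. Gpld1, a phospholipase that cleaves membrane anchors, was at 3.62, 2.88 and 3.16 CPM on d7 and 30.7, 12.4 and 11.3 CPM on d10 (2.49 ± 0.39, adjusted p = 0.0185, and 1.89 without X54, adjusted p = 0.0201). Its exons lie opposite to those of Mrs2 over 45.5% of their length. R3hdml was at 4.63, 3.11 and 6.097 CPM on d7 and 35.2, 15.5 and 25.3 CPM on d10 (2.45 ± 0.404, adjusted p = 0.0207). The adhesion molecule Kirrel3, at 40.3, 13.7 and 9.12 CPM on d10 against 3.03, 2.05 and 4.12 CPM on d7, the noncoding RNA Gm11476, the coenzyme A enzyme Pank1, the lectin-like Lman1l and the noncoding RNA C030013C21Rik also rose, by 2.77, 2.34, 1.94, 1.93 and 1.895. Of these 5, C030013C21Rik passed without X54 (adjusted p = 0.0455). On the other side, Ms4a4a (chr19:11375523-11392790, ENSMUSG00000101389, plus strand, protein coding), a membrane protein of macrophages, was at 11.98, 12.2 and 10.9 CPM on d7 and 1.13, 1.77 and 3.04 CPM on d10 (-2.55 ± 0.33, adjusted p = 0.00738, and -2.26 without X54, adjusted p = 0.0116). Cd300lf, an inhibitory receptor of myeloid cells, was at 49.3, 53.1 and 53.97 CPM on d7 and 2.898, 16.7 and 12.04 CPM on d10 (-2.31 ± 0.47, adjusted p = 0.0356). All d10 calli were low, with X54 lowest for both. The other large decreases were Tnfrsf14 (-2.59), Clca3a1 (-2.498), Dhrs9 (-2.24), A530064D06Rik (-2.08), Sema4a (-2.06) and Tbc1d8 (-2.02), of which Tbc1d8 alone passed without X54 (adjusted p = 0.0347). Against a threshold of 1.5-fold in place of no change, 5 genes passed: Acp5, Ocstamp, Slc9b2, Oas2 and Ms4a4a.

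The same days in DIO mice, which share no library with the lean contrast, were fitted with the lean mice over 24 libraries of d3 to d10. Of the 179 genes higher in lean callus, 158 had a fitted increase in DIO callus and 95 were called higher there, beside 1095 of 17057 tested genes (6.42%). Of the 271 lower in lean callus, 199 had a fitted decrease and 61 were called lower, beside 1217 genes (7.13%), and 2 and 3 were called the opposite way. The median DIO change was 0.60 for the former and -0.26 for the latter. Osteoclast genes rose in both diets, with 22 of 26 called higher and 1 lower in DIO callus, and a median of 1.596. Acp5 rose by 3.48 in DIO callus (adjusted p = 4.45e-08), Ctsk by 2.78 (adjusted p = 6.17e-07) and Ocstamp by 2.41 (adjusted p = 1.57e-07). In this paragraph the means of DIO callus are CPM scaled over the 24 libraries. Those of lean callus are scaled over the 12 lean libraries, so the scales are not identical. The mean of Acp5 was 531 CPM on d7 and 5902 CPM on d10 in DIO callus, against 1464 and 5618 CPM in lean callus. Ctsk had means of 672 and 4626 CPM in DIO callus, against 1531 and 3902 CPM in lean callus. Ocstamp had 15.5 and 82.7 CPM in DIO callus, against 32.5 and 91.9 CPM in lean callus. For these genes the diets differed more on d7 than on d10. Few interferon genes were called in DIO callus, with 1 higher and 2 lower of 45 and a median of 0.32. Oas2 gave -0.063 (adjusted p = 0.927), with means of 15.1 CPM on d7 and 14.5 CPM on d10. In lean callus its means were 41.1 and 9.60 CPM, so on d7 it was already lower in DIO than in lean callus. Slfn4 fell in DIO callus too, with -1.31 (adjusted p = 0.0412). Cartilage collagens had 5 of 8 lower in DIO callus, with a median of -2.62.

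The difference between the diets in the change from d7 to d10 was itself tested, and 865 of 17057 genes passed (5.07%), 290 with a more positive change in DIO callus and 575 with a more negative one. Without X54, 257 passed in either direction, and the list counts without X54 below have only this total beside them. Of the osteoclast list 13 genes had a more positive change in DIO callus and 0 a more negative one, and 6 and 0 without X54. The interferon list had 10 and 0, and 2 and 0 without X54. The cartilage collagens had 0 and 5, and 0 and 4 without X54. The noncollagenous cartilage genes had 0 and 14, and 0 and 10 without X54. A more positive change need not mean a higher level on d10. Acp5, Ctsk and Ocstamp were among the 13 osteoclast genes, and their means differed between the diets more on d7 than on d10.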

How the data were processed

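The authors demultiplexed the paired reads with bcl2fastq, trimmed them with BBDuk, mapped them with HISAT2 2.1.0 (build GRCm38) and counted reads per gene with HTSeq. The deposited values are these raw counts, without normalization, for 43629 Ensembl genes in 30 libraries. The strand setting of the counting, the version of HTSeq and the annotation are not given in the sources used here. Libraries were prepared with a stranded kit for polyadenylated RNA. The authors tested pairs of groups with DESeq2.

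Groups and replicate numbers came from the sample labels. Genes were tested in R 4.3.3 with edgeR 4.0.16 on the counts, with TMM factors and filterByExpr at its defaults, in 1 fit of the 12 lean libraries of d3, d5, d7 and d10 without covariates, since 3 against 3 libraries alone leave few degrees of freedom. Each adjusted p is from edgeR's quasi-likelihood test (two-sided) with Benjamini-Hochberg adjustment over all tested genes, at a threshold of 0.05, and each ± is the standard error of a log2 fold change. "Called" means past this threshold. The difference between the diets was an interaction term in 1 fit of 24 libraries of d3 to d10, which also gave the DIO change. The spread between the libraries of a day includes the spread between mice, and 3 mice per day limit the precision. Tables were made in Python 3.11.15 with pandas 2.3.3 and numpy 2.4.6. Positions are those of GENCODE M21, in which 42548 identifiers were found. The test was run on simulated counts with known changes first.

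The members and the 32 gene lists (773 distinct symbols, 770 matched, 750 tested) were chosen with earlier results of these data known. Lists are described by counts and medians without a test. Named genes were the 12 largest increases and decreases among called genes of at least 5 CPM without overlap, the first 3 and up to 4 called genes of each list, the 8 genes highest and lowest in X54 among those of at least 10 CPM, the 5 genes with the most reads on d10 and the 5 most significant interactions in each direction. Gm42418, Slc9b2, Mrs2, Atp6v0d2, Atp6v1c1, Clcn7, Snx10, Tnfrsf11a, Tnfrsf11b, Siglec15, Calcr, Csf1, Csf1r, Nfatc1, Itgb3, Car2, Dmp1, Mx1, Cmpk2, Zbp1, Dhx58, Oasl2, Tlr7, Ccr2, Fcgr3 and Cx3cr1 were named as further members of a list, or beside another gene, after their values were seen. Values of 1 list member are not reported here. Alternatives were upper-quartile and RLE factors, other filters, DESeq2 1.42.0, other sets of libraries, a replicate block (also without X54), a 1.5-fold threshold and leaving out each library. Lean d14 and d21 calli were not analysed here.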

Additional observations from a re-analysis of the deposited data

Results flagged for a closer look

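In 10 genes, the 5 with the smallest adjusted p of the interaction in each direction, the change from d7 to d10 differed between DIO and lean callus by the edgeR interaction test. Each difference is given as the DIO change minus the lean change on the log2 scale, and CPM here are scaled over 24 libraries. The adjusted p of the 10 ran from 0.00199 to 0.00487, and from 0.00124 to 0.0158 without X54, where every difference had the same sign.

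Ciita, the regulator of MHC class II, had a difference of 3.05 ± 0.501 (SE), and 2.74 without X54. It was at 8.98, 7.21 and 11.4 CPM in lean callus on d7 and 1.38, 3.47 and 3.09 CPM on d10, and at 1.93, 3.22 and 2.79 CPM and 10.03, 4.57 and 4.42 CPM in DIO callus, so that it fell in lean and rose in DIO calli. Dapk2, a calmodulin-regulated kinase of cell death, had a difference of 1.96 (1.77 without X54). Oscar, the osteoclast receptor, had 1.94 (1.75), at 9.28, 12.2 and 10.2 CPM on d7 and 87.3, 71.02 and 102 CPM on d10 in DIO callus against 35.8, 37.6 and 24.9 CPM and 50.6, 65.9 and 94.03 CPM in lean callus. The proton pump subunit Atp6v1b2 had 1.41 (1.23) and the brain-type creatine kinase Ckb 1.81 (1.75). Ckb was at 981, 1130.3 and 1102 CPM in lean and 1108, 1149 and 1269 CPM in DIO callus on d10, and at 477, 556 and 302 CPM and 96.7, 147 and 173 CPM on d7, so the diets differed more on d7 than on d10.

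In the other direction the glycolytic enzyme Eno1 had -2.0 (-1.68 without X54), the membrane protein Nrn1 -4.23 (-3.397), Syt8, a synaptotagmin, -5.1 (-3.86) and the potassium channel Kcna5 -3.85 (-3.05). Ucma, a matrix protein of cartilage, had -8.35 ± 1.15 (-7.03 without X54). It was at 6.01, 7.97 and 14.3 CPM on d7 and 171, 39.96 and 22.3 CPM on d10 in lean callus, and at 174, 194 and 266 CPM and 0.306, 8.55 and 7.02 CPM in DIO callus. For Ucma, Syt8 and Nrn1 the DIO calli of d7 were far above the lean calli of d7, and X54 was the highest lean callus.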

How the results depend on the processing

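The number of called genes depended on the fit. In place of 450, it was 430 with RLE factors, 1773 with DESeq2, 1479 with the replicate block, 678 with the replicate block and without X54, 1529 over all 30 libraries, 5 against a 1.5-fold threshold and 0 in edgeR on the 6 libraries of d7 and d10 alone, where 3219 genes had an unadjusted p under 0.05. Leaving out a library gave 24 to 1141, with 45, 24 and 35 without X19, X20 and X23, 100 without X54, 642 without X56 and 1141 without X57. All 450 were also called by DESeq2 and with the block, and 425 over all 30 libraries. The replicate numbers name different mice. The deviations of same-numbered d7 and d10 libraries correlated at 0.087, 0.249 and 0.050, beside -0.201 to 0.0887 between different numbers. The value of 0.249 lies above that range. The numbers were not taken to pair the samples, since they name different mice and the labels name no batch. Of 865 interaction genes, the count was 1475 with DESeq2, 838 with the replicate block, 283 over 12 libraries of d7 and d10, and 257 (without X54) to 1660 (without X57) on leaving out a library. The 2987 genes by which X54 stood apart became 1107 after a variance-stabilizing transformation and 1005 among genes of at least 10 CPM. Of 65 called named genes, 64 were called with RLE and 63 with upper-quartile factors, 14, 8 and 10 without X19, X20 and X23, 26 without X54, 63 without X56, 57 without X57, 4 against the 1.5-fold threshold and 0 on the 6 libraries alone, and none changed direction in any setting. Of 32 list medians, 7 moved by more than the spread between replicates without X54, and 1 to 4 without each of the other 5 libraries. The median of the matrix protease list is near 0 and changes sign with RLE factors. The cause was not tested. With 3 mice per day, a call rests on few animals.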

Other observations

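Genes of glycolysis and the response to hypoxia were called higher in 2 of 28 members and lower in 0. Over all tested genes the shares were 1.09% and 1.65%. The median log2 fold change of the list was 0.19 (0.099 without X54). Aldoc, an aldolase, was at 8.72, 7.28 and 6.27 CPM on d7 and 38.9, 15.4 and 17.9 CPM on d10 in lean callus (1.696 ± 0.35, adjusted p = 0.0356, and 1.18 without X54, adjusted p = 0.0746). Epas1, the hypoxia-inducible factor of vessels, rose by 0.56 ± 0.13 (adjusted p = 0.0453, and 0.504 without X54, adjusted p = 0.114), with 119, 111 and 99.4 CPM on d7 and 177, 154 and 155 CPM on d10. Without X54 neither passed. In DIO callus the same list had 2 members higher and 13 lower on d10, beside 6.42% and 7.13% of all tested genes.

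The 14 genes of muscle regeneration, among them Myog and Myod1, had 0 calls by edgeR, with a median of -1.499 (-1.46 without X54). Of these, 5 had an unadjusted p under 0.05 and DESeq2 called 2 lower, beside 4275 and 1773 over all genes. They summed to 2874, 1573 and 285 CPM on d5, 486, 227 and 262 CPM on d7 and 154, 149.8 and 187 CPM on d10. Among 13 genes of Schwann cells and myelin, 1 was called lower and 0 higher, beside 1.65% and 1.09% of all tested genes. This was Mbp, the basic protein of myelin. Mbp was at 38.4, 47.6 and 36.9 CPM on d7 and 16.5, 23.0005 and 21.6 CPM on d10 (-1.01 ± 0.21, adjusted p = 0.0356, and -0.87 without X54, adjusted p = 0.0942). X54 was at least 2-fold higher than the mean of X56 and X57 in 2 and at least 2-fold lower in 2 of the 14 muscle regeneration genes, and higher in 1 and lower in 2 of the 13 Schwann cell genes. Ckb, a creatine kinase of osteoclasts and brain, rose in lean callus from 486, 557 and 304 CPM to 988, 1153 and 1105 CPM (1.27 ± 0.23, adjusted p = 0.0237, and 1.34 without X54, adjusted p = 0.0363).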
